A study of Homo sapiens with 6 samples.

Results

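The genes described here carry a symbol of the form ZNF followed by a number and had a mean of at least 5 TPM in untreated CAL-27 cells. TPM is a share of all transcripts in a library after correction for the length of each gene. CAL-27 is an established line of human tongue squamous carcinoma. Of 426 ZNF symbols in a table of 16809 genes, 171 met this rule and 255 did not. The genes were thus chosen by their control values, so the control levels below are a description. The study set 3 libraries of untreated cells (CON, labelled normal control) beside 3 libraries of the same line after 24 h of elesclomol with copper in equal ratio (ES-Cu, labelled ESCU). Elesclomol ferries copper across membranes and is given to provoke cuproptosis, a form of cell death tied to lipoylated mitochondrial enzymes. The series asked how the transcriptome changes during cuproptosis. No dose, vehicle or copper-alone group is given in the labels, nor a time for the control libraries, and both groups are 1 cell line. The labels do not say whether libraries came from separate cultures, so each p-value speaks only for the spread among these libraries, which could be technical.

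Most ZNF proteins carry C2H2 zinc fingers, short loops held by a zinc ion through a pair of cysteines and a pair of histidines, and arrays of these fingers read DNA sequence. They form the largest family of human transcription factors. Many have an amino-terminal KRAB domain, which recruits the corepressor TRIM28 (KAP1), and through it the histone methyltransferase SETDB1 and HP1 proteins, to silence transposable elements and other genes. Others carry a SCAN domain, through which such proteins pair. KRAB genes arose by repeated duplication and lie in runs of related neighbours, so parts of their transcripts and promoters are alike.

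Not every listed gene is a DNA-binding factor, although the family is named for it. In coding sequences translated from GENCODE release 29, the C2H2 pattern was found a median of 8 times per protein and at most 33 times. It was found at least 3 times in 151 of the 171 proteins, under 3 times in 20 and not at all in 3. The last were ZNF185, a LIM protein tied to actin, ZNF330 and ZNF503. A KRAB domain was found in 78 proteins, a SCAN domain in 13, and both in 8. The list is therefore called ZNF genes here rather than transcription factors.

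The promoters of several KRAB genes are close copies of each other, among them genes near the top of the response and genes that did not rise. RefSeq windows of 300 bases (250 before the first listed start to 50 after it, build GRCh38.p14) matched 148 of the 171 genes. Among the 10878 pairs of these windows, 28 shared 10 or more words of 12 bases. The 110 bases just before the start of 7 genes are given below, 5′ to 3′ on the gene's strand. ZNF57 shares no such pair and is shown for the marked word. Capitals mark TCCAATCAG, a word that contains CCAAT, the core recognised by the factor NF-Y. The word was noticed on reading the windows of the largest rises, and the 7 genes were chosen after their values were seen.
ZNF267 (chr16:31873697-31873806, plus strand): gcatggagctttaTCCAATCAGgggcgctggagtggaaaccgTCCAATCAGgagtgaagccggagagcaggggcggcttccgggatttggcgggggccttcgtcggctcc
ZNF57 (chr19:2900818-2900927, plus strand): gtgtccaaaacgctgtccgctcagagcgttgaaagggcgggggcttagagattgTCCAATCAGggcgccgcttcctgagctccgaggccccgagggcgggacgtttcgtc
ZNF92 (chr7:65373745-65373854, plus strand): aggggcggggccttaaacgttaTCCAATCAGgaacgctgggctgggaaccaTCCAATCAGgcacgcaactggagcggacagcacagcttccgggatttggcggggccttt
ZNF138 (chr7:64794318-64794427, plus strand): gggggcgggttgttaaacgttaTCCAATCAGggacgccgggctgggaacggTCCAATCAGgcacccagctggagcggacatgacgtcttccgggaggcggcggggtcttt
ZNF430 (chr19:21020547-21020656, plus strand): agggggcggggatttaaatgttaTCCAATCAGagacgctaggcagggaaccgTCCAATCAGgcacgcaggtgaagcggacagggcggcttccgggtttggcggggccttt
ZNF431 (chr19:21141930-21142039, plus strand): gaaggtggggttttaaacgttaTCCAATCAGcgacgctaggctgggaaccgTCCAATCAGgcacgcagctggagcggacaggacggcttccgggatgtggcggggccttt
ZNF66 (chr19:20776194-20776303, plus strand): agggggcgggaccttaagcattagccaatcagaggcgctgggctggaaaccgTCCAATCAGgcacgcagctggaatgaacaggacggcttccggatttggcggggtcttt

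After ES-Cu most genes had lower TPM, and the ZNF genes departed from that in the direction of higher values. Differences are on the log2(TPM + 1) scale, ES-Cu minus control, tested with limma across the 11927 genes that averaged 1 TPM or more and adjusted by Benjamini-Hochberg at 0.05. That scale understates the change of low genes. On the deposited scale 52 ZNF genes were called higher, 85 lower and 34 neither way. Over all tested genes 13.6% were called higher and 70% lower, and over the 9736 genes of other names with at least 5 TPM in control 13.4% were called higher and 72% lower. Among the ZNF genes the shares were 30.4% and 49.7%. The median difference was -0.24 for the ZNF genes, -0.50 for all tested genes and -0.50 for the genes of other names.

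Since TPM adds up to a fixed total, the call of a gene near the middle turns on the scale. After median-of-ratios scaling, which moved the median of all genes from -0.50 to 0.00, 89 ZNF genes were called higher and 37 lower, against 38% and 35.8% of all tested genes and 40.7% and 35.3% of the genes of other names. After quantile normalization 94 were called higher and 32 lower, against 31.4% and 39.9% of all tested genes and 30.9% and 43.5% of the genes of other names. The ZNF median was then 0.28 and 0.34. Below, a gene is said to have risen or fallen only where limma called it with 1 sign on all 3 scales. By that rule 52 ZNF genes rose, 29 fell and 90 did neither. The rule is uneven, since the other 2 scales shift values upward. All 52 genes called higher on the deposited scale kept their call, but only 29 of the 85 called lower did. The same rule gave rises for 13.5% and falls for 31.2% of all tested genes, and rises for 13.3% and falls for 32.9% of other-name genes with the same control minimum, against 30.4% and 17.0% of the ZNF genes. No test of the list is given, and these shares are a description.

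**Figure D1:**
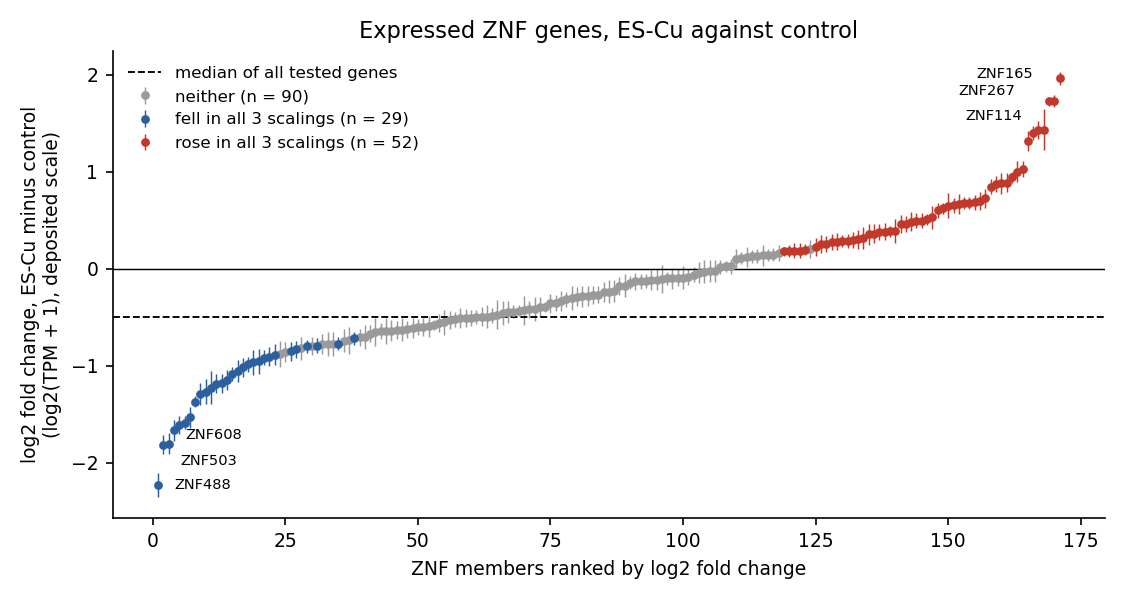
Each of the 171 ZNF genes is placed by its rank on the x axis and its log2 fold change, ES-Cu minus control on the log2(TPM + 1) scale, on the y axis, with bars of 1 standard error from limma. Red points rose and blue points fell on all 3 scales, and the dashed line is the median of all tested genes, -0.50.

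In the libraries themselves, 55 ZNF genes had every ES-Cu value above every control value, 85 had every ES-Cu value below and 31 overlapped. Among all tested genes 14% lay wholly above and 70.3% wholly below, and among the genes of other names 13.8% and 72.3%. The coefficient of variation between the 3 libraries of a group had a median of 7.21% over the ZNF genes in control and 7.60% in ES-Cu, against 5.02% in control for the genes of other names. The ZNF genes are low expressed, with a median control mean of 9.99 TPM, 86 of them under 10 TPM and a highest of 115.6 TPM. TPM keeps no read totals, so depth and counting error are unknown. In ES-Cu 133 of the 171 still had a mean of at least 5 TPM and 38 lay below it.

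The gap to other genes was present at each control level compared. Among genes of 5 to 10 TPM in control the median difference was -0.27 for 86 ZNF genes and -0.65 for 1582 other genes. At 10 to 20 TPM it was -0.14 for 52 ZNF genes and -0.56 for 2231 others, and at 20 to 50 TPM -0.21 for 28 and -0.50 for 3000. At 50 TPM and above only 5 ZNF genes remained, with a median of -0.24 against -0.38 for 2923 others, and without the third control library the 2 medians differed by only 0.0032. In the lowest bin 29.1% of ZNF genes rose against 10.1% of the others. In the next bins the shares were 30.8% against 12.7% and 32.1% against 13.5%. Falls ran the other way, with 15.1% of ZNF genes against 33.5% of others in the lowest bin.

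**Figure D2:**
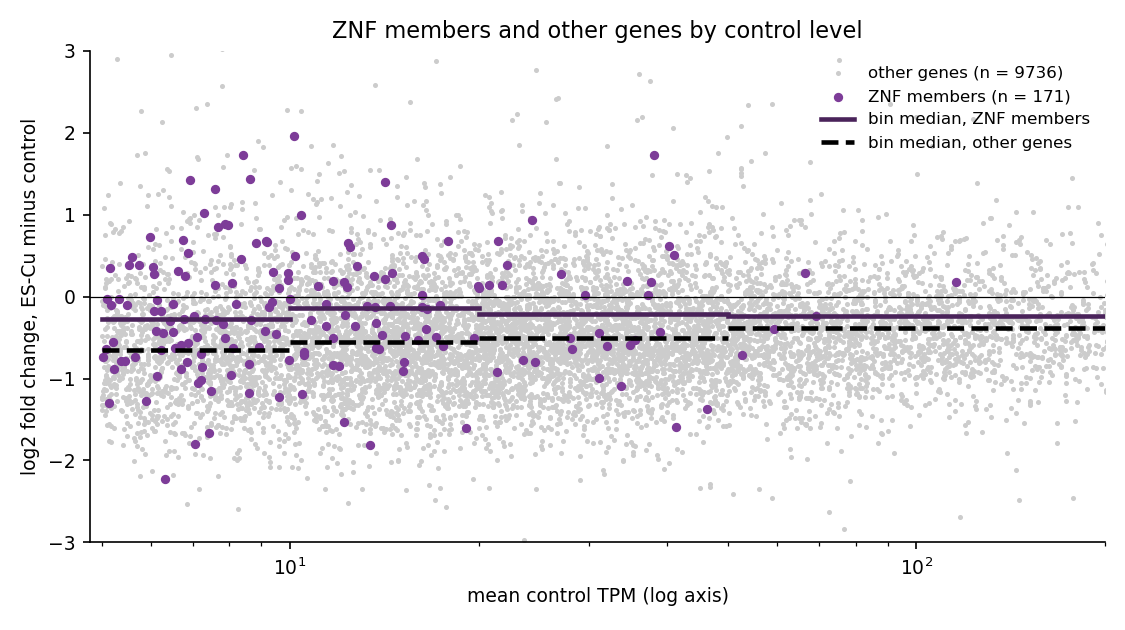
Mean control TPM is on the x axis (log axis) and log2 fold change, ES-Cu minus control, on the y axis, for 171 ZNF genes (purple) and 9736 genes of other names (grey, of which 745 lie outside the plotted range). Horizontal lines are medians within bins starting at 5, 10, 20 and 50 TPM; the ZNF line lies above the other in each bin.

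The largest rises belonged almost wholly to KRAB proteins, 7 of 8. ZNF165, a SCAN protein known as a cancer-testis antigen, was the exception and rose most. Its 3 control libraries gave 9.33, 10.6 and 10.5 TPM and its ES-Cu libraries 42.8, 42.4 and 41.5 TPM. The groups stood far apart, and the mean rose from 10.1 ± 0.70 to 42.2 ± 0.64 TPM (SD, n = 3 in each), a log2 fold change of 1.96 with a standard error of 0.066 and a limma Benjamini-Hochberg adjusted p of 1.24e-09.

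ZNF267, a KRAB protein with 14 finger patterns, had 8.27, 8.63 and 8.38 TPM untreated and 30.0, 30.1 and 30.4 TPM with ES-Cu. Its libraries were the tightest of the leading genes, and its log2 fold change was 1.73 (standard error 0.063). ZNF114 was the most abundant of the group, at 38.6, 39.2 and 36.5 TPM without the drug and 126.4, 123.6 and 134.0 TPM after ES-Cu. That is a 3.36-fold higher mean, with a limma adjusted p of 3.80e-10.

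ZNF430 had 1 library in each group that stood above its partners. Control values were 7.13, 6.64 and 12.1 TPM and ES-Cu values 19.8, 21.4 and 33.3 TPM, the third library being highest in both groups. The groups did not overlap, and the log2 fold change of 1.43 carried the largest standard error of the leading rises, 0.21. ZNF92 went from 6.40, 7.81 and 6.59 TPM to 21.9, 20.6 and 18.5 TPM, also a log2 fold change of 1.43.

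The remaining leading rises included proteins with known work outside transposon silencing. ZNF394, which has both KRAB and SCAN domains, had 13.1, 13.6 and 15.9 TPM in control and 39.7, 38.9 and 38.1 TPM with ES-Cu. ZNF57 had 7.05, 6.98 and 8.74 TPM against 18.0, 21.8 and 21.1 TPM. ZNF473, which takes part in the processing of histone pre-mRNA with the U7 snRNP, had 7.49, 6.62 and 7.78 TPM against 15.4, 15.9 and 16.4 TPM. In all 3 the groups were separate, with log2 fold changes of 1.40, 1.31 and 1.03, and the limma adjusted p over the 8 leading rises ran from 3.80e-10 to 7.26e-05.

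Across all 52 rises the log2 fold change had a median of 0.50 and ran from 0.18 to 1.96, and 8 of them reached a log2 fold change of 1. ZNF3 and ZNF304 were the 2 rises whose groups overlapped between libraries. All 52 were also called higher once the trend of each library with transcript GC content had been removed. That step also moved the median of all tested genes from -0.50 to -0.0016. Genes already higher on the deposited scale were thus favoured to keep their call, and it is no separate check of GC content.

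The largest falls had no KRAB protein among 8, and 5 of the 8 had fewer than 3 finger patterns. ZNF488, known for its part in oligodendrocyte differentiation, fell most, from 7.21, 5.98 and 5.75 TPM in control to 0.65, 0.50 and 0.52 TPM after ES-Cu. Its control mean was 11.3-fold the ES-Cu mean, with a log2 fold change of -2.23 (standard error 0.12) and a limma adjusted p of 3.29e-08. Control and ES-Cu libraries were wholly apart.

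ZNF503, a developmental corepressor, had 15.1, 12.6 and 12.5 TPM untreated and 3.06, 3.13 and 3.07 TPM with ES-Cu, a log2 fold change of -1.81. ZNF608 had 7.55, 7.08 and 6.52 TPM against 1.33, 1.2 and 1.38 TPM, a log2 fold change of -1.80. ZNF618, a partner of the hydroxymethylcytosine reader UHRF2, had 7.29, 7.66 and 7.34 TPM against 1.79, 1.35 and 1.84 TPM. All 3 went from above 6 TPM to near or below 3 TPM with no overlap.

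The other leading falls started higher. ZNF318, required for IgD expression in B cells, had 18.0, 19.9 and 19.3 TPM without the drug and 6.36, 5.05 and 5.38 TPM after ES-Cu. ZNF395, a factor induced by hypoxia, had 43.2, 38.7 and 42.1 TPM against 13.99, 12.4 and 12.8 TPM, although 41.7% of its 50-base words occur in another gene, so counting could have split its reads. ZNF512B went from 10.6, 13.5 and 12.4 TPM to 3.13, 3.88 and 3.61 TPM. ZNF385A, a cofactor of p53, went from 46.7, 45.6 and 46.7 TPM to 18.1, 16.7 and 16.9 TPM. The groups were apart for each of these 4, and the limma adjusted p over the 8 leading falls ran from 4.73e-09 to 2.07e-07.

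**Figure D3:**
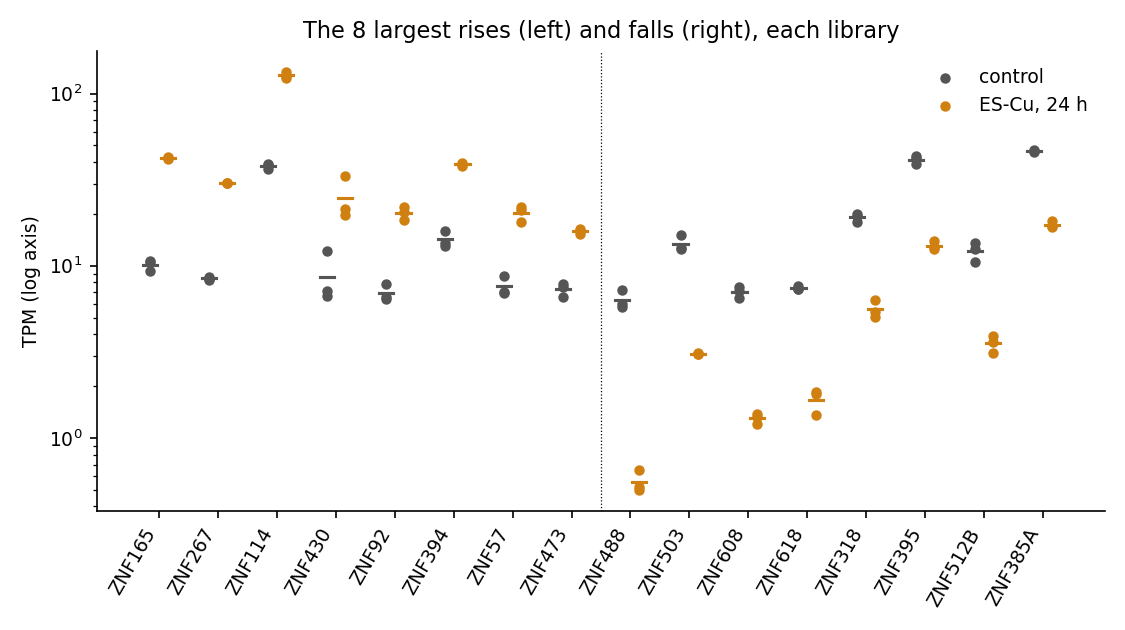
TPM of each library (log axis) for the 8 ZNF genes with the largest rises and the 8 with the largest falls, control in grey and ES-Cu in orange, with a bar at the mean of 3 libraries. No gene shown has overlapping groups, and ZNF430 shows 1 high library in each group.

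The 29 falls had a median log2 fold change of -1.09 and ran from -2.23 to -0.72, and 17 were at -1 or below. None overlapped between groups. The falling genes had GC-richer transcripts, with a median of 57.3% against 45.6% for the rises. With the GC trend removed, a step that also raised the median of all tested genes, 23 of the 29 were still called lower. ZNF524, ZNF777, ZNF414, ZNF768, ZNF687 and ZNF511 were the 6 that lost the call.

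The 5 ZNF genes highest in control had differences of under 1 on the log2 scale. ZNF664 had 114.3, 120.7 and 111.9 TPM in control and 132.5, 129.7 and 129.9 TPM with ES-Cu and rose by 0.18 on the log2 scale (limma adjusted p = 0.0026). ZNF146, a protein made almost only of fingers, had 66.2, 70.0 and 63.2 TPM against 83.9, 86.0 and 73.6 TPM and rose by 0.28. In neither did the groups overlap.

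ZNF593, which acts in maturation of the large ribosomal subunit, had 75.9, 74.8 and 56.9 TPM untreated and 52.1, 59.6 and 62.5 TPM after ES-Cu. Its groups overlapped, and its difference of -0.24 became 0.31 after median scaling. ZNF185 had 59.1, 57.5 and 60.9 TPM against 46.3, 42.4 and 45.8 TPM, a difference of -0.39 that became 0.15 after median scaling. ZNF511 fell from 48.5, 55.1 and 54.5 TPM to 32.8, 29.5 and 32.6 TPM, a difference of -0.72. The difference was -0.17 after median scaling, which does not use GC content, and -0.12 with the GC trend removed.

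The threshold itself cut through a smooth range of levels. Just inside it were ZNF772 at 5.03, ZNF510 at 5.08 and ZNF398 at 5.11 TPM in control, with ES-Cu means of 2.61, 2.91 and 5.02 TPM. Just outside were ZNF324 at 4.96, ZNF551 at 4.93 and ZNF33A at 4.87 TPM, with ES-Cu means of 5.78, 6.43 and 2.63 TPM. The ZNF genes closest to no difference on the deposited scale were ZNF655, with 29.6 and 29.8 TPM, ZNF207, with 37.3 and 37.9 TPM, and ZNF639, with 16.2 and 16.5 TPM. ZNF207 (BuGZ) binds BUB3 at kinetochores. All 3 were called higher after both other scalings, so level means here only a constant share of TPM.

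The threshold also left out 15 ZNF symbols that reached 5 TPM only in ES-Cu. ZNF460 went from a mean of 0.77 TPM to 8.50 TPM, a log2 fold change of 2.42, larger than that of any gene inside the threshold. ZNF222 went from 3.29 to 15.3 TPM, a log2 fold change of 1.93. Both rose on all 3 scales and were picked out after their values were seen. Of the 139 tested ZNF symbols below 5 TPM in control, 30 rose (21.6%) and 13 fell (9.35%), with a median of -0.22. Over all tested genes 13.5% rose and 31.2% fell. Symbols under 1 TPM in control, ZNF460 among them, passed the filter of 1 TPM only through ES-Cu values. The count below 5 TPM therefore favours rises.

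KRAB proteins differed in their balance from the other ZNF proteins. Of 78 with a KRAB domain, 29 rose (37.2%), 6 fell (7.69%) and the median was -0.08. Of 93 without it, 23 rose (24.7%), 23 fell (24.7%) and the median was -0.39. Over all tested genes 13.5% rose and 31.2% fell. On the deposited scale alone 29 KRAB genes were called higher and 31 lower, and of the others 23 and 54. The gap of 0.32 between these medians shrank to 0.17 when the GC trend of each library was removed, and KRAB transcripts were lower in GC (median 45.6% against 51.8%). The part of GC content in the gap was not tested further.

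On the deposited scale the summed TPM of KRAB genes was higher after ES-Cu and that of the other ZNF genes lower. KRAB genes summed to 796 ± 7.63 TPM in control and 969 ± 28.9 TPM with ES-Cu, and the others to 1776 ± 34.0 and 1595 ± 31.2 TPM (SD, n = 3 in each). The library sums of each class did not overlap between groups. The 7 KRAB genes among the 8 largest rises summed to 91.1 ± 4.30 TPM in control and 278 ± 11.6 TPM with ES-Cu. The other 71 summed to 705 ± 10.04 TPM in control and 691 ± 23.6 TPM with ES-Cu, with overlapping libraries. Those 7 were picked by their rises in these data, and no falling gene was set aside. A smaller remaining difference was thus fixed by the choice. Over all 171 genes the share of TPM was 0.257% ± 0.0041 in control and 0.256% ± 0.0056 in ES-Cu, with overlapping libraries.

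Among ZNF proteins without KRAB, the 69 with at least 3 finger patterns and no SCAN domain had 17 rises, 17 falls and a median of -0.33. The 19 with fewer patterns had 4 rises, 6 falls and a median of -0.58. The 5 SCAN proteins without KRAB had 2 rises, ZNF165 and ZNF24, and no fall. By number of finger patterns the median difference was -0.57 for 0 to 2 patterns (20 genes), -0.45 for 3 to 5 (40 genes), -0.15 for 6 to 10 (51 genes) and -0.10 for 11 or more (60 genes). Within KRAB proteins the rank correlation of the difference with the number of patterns was 0.02 across 78 genes, and within the others 0.18 across 93. These correlations are across genes of the same 6 libraries and are given as a description.

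**Figure D4:**
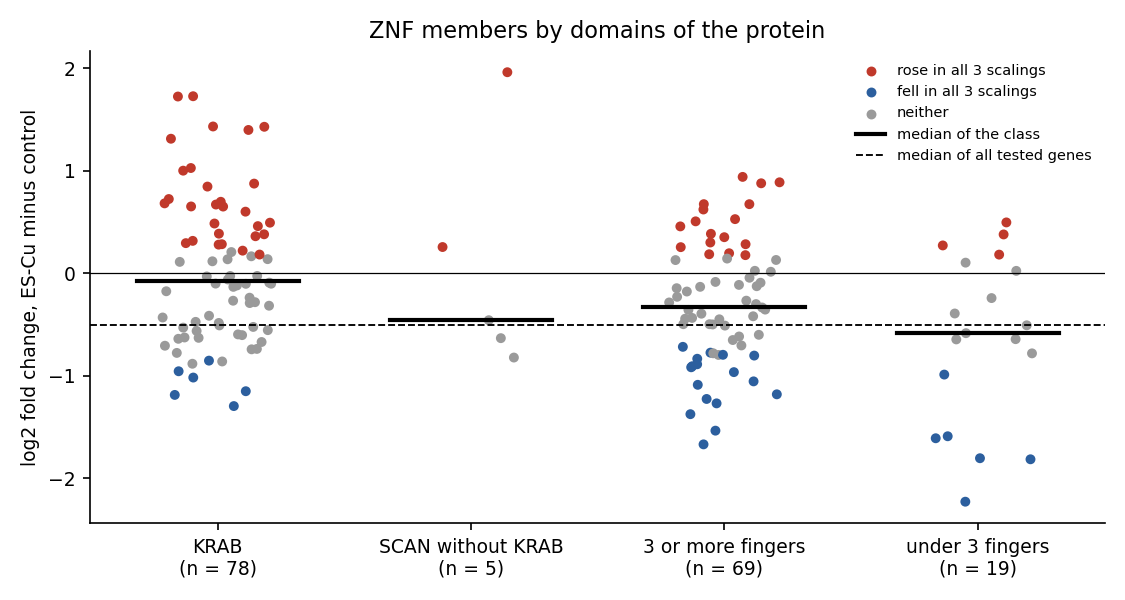
Log2 fold change, ES-Cu minus control, of each ZNF gene by the domains found in its protein, with the class median as a bar and the median of all tested genes, -0.50, as a dashed line. KRAB genes have the highest class median, -0.08, and the proteins with under 3 fingers the lowest, -0.58.

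Transcript GC content, which the rule did not use, went with the difference in ZNF genes as in other genes. Across 171 ZNF genes the rank correlation was -0.30, and across 9713 other genes -0.24. Within each of 5 GC bins the ZNF median was above that of the others, but hardly so at 50 to 55% GC, with -0.46 for 19 ZNF genes and -0.51 for 1555 others. In transcripts under 42% GC it was -0.04 for 42 ZNF genes and -0.34 for 2172 others. In those of 55% and above it was -0.50 for 52 ZNF genes and -0.68 for 3129 others. The share that fell in this GC-rich bin was 30.8% of ZNF genes and 45.4% of others. With the trend removed in each library the ZNF median was 0.26 and that of all genes -0.00.

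Several ZNF proteins with a known task rose, and they are named here after their values were seen. ZNF143, an activator of snRNA and many other promoters, had 20.8, 22.6 and 21.0 TPM without the drug and 35.0, 33.6 and 35.9 TPM after ES-Cu. ZNF622, a factor of large ribosomal subunit maturation, had 37.8, 39.7 and 43.4 TPM against 63.0, 60.8 and 63.6 TPM. The log2 fold changes were 0.67 and 0.62, with no overlap.

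ZNF598, the ubiquitin ligase that marks collided ribosomes, had 36.8, 39.8 and 36.6 TPM in control against 45.5, 42.01 and 41.2 TPM with ES-Cu, a smaller rise of 0.18. ZNF274, a KRAB and SCAN protein that brings SETDB1 to the 3′ ends of ZNF genes, had 8.25, 10.1 and 9.19 TPM against 17.2, 13.2 and 15.2 TPM, a rise of 0.67. ZNF410, an activator of the NuRD helicase gene CHD4, had 43.9, 38.8 and 40.5 TPM against 59.4, 56.3 and 60.3 TPM, although 83.5% of its 50-base words also occur in another gene. In each of these 3 every ES-Cu library lay above every control library.

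The partners through which KRAB proteins silence were counted by the same rule. Of 8 genes of the TRIM28 complex listed for this comparison, none rose and 2 fell. Over all tested genes 13.5% rose and 31.2% fell, so with 8 genes these counts are near the background. TRIM28, the scaffold bound by KRAB domains, had 245.0, 240.7 and 232.0 TPM in control and 192.4, 196.5 and 183.6 TPM after ES-Cu. Its difference was -0.32 on the deposited scale and 0.23 after median scaling, so it has no direction that holds across scales.

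SETDB1, which methylates histone H3 at lysine 9, fell from 28.2, 27.8 and 27.8 TPM to 17.3, 11.97 and 13.8 TPM (log2 fold change -0.93, limma adjusted p = 8.24e-06). CBX5, the HP1 protein HP1α, fell from 23.1, 25.7 and 23.1 TPM to 7.71, 6.24 and 6.79 TPM (log2 fold change -1.66, limma adjusted p = 2.43e-08). Both were separate between groups and kept the call with the GC trend removed.

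Other members of that complex did not pass on all 3 scales. The HP1 genes CBX1 and CBX3 had means of 163.9 and 294.1 TPM in control and 104.5 and 192.6 TPM with ES-Cu. ATF7IP, the SETDB1 stabiliser, had 23.8 and 17.8 TPM, and the remodeller SMARCAD1 9.26 and 5.71 TPM.

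Genes of related silencing complexes were counted in the same way. None of 4 genes of the HUSH complex with MORC2 and neither of ATRX and DAXX rose or fell on all 3 scales. The largest deposited differences in the first were TASOR (-0.57), MPHOSPH8 (-0.38) and PPHLN1 (-0.36), and ATRX had -0.55 and DAXX -0.25. Of 13 NuRD genes GATAD2A rose and MTA1 (-1.17) and CHD4 (-0.94) fell, while CHD3 differed by -0.68 without a call on all scales. Of 8 genes of DNA and H3K9 methylation 6 fell, among them EHMT2 (-1.30), DNMT3A (-1.02) and EHMT1 (-0.96). Over all 35 listed partner genes, 1 rose and 10 fell on all 3 scales, 2.86% and 28.6%, and the median difference was -0.55. Over all tested genes 13.5% rose, 31.2% fell and the median was -0.50, so the falls were near the background.

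Other families of zinc finger genes, with the same control minimum, had medians between that of the ZNF genes (-0.24) and that of all tested genes (-0.50). Their shares of rises, from 0% to 25%, were below the 30.4% of the ZNF genes. The 28 ZBTB genes had 5 rises (17.9%), 6 falls and a median of -0.31. The 11 ZSCAN or ZKSCAN genes had no rise, 2 falls and a median of -0.26. The 8 ZFP genes had 2 rises, 2 falls and a median of -0.30, and the 14 ZC3H genes, whose CCCH fingers bind RNA, 2 rises (14.3%), 3 falls and a median of -0.40. The differences between families were not tested.

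Genes beside another ZNF gene were compared with the rest. Only neighbours with a symbol of ZNF and a number were counted. Genes beside other zinc finger genes are thus in the rest, such as ZNF165 beside ZSCAN16. Taking neighbours from the RefSeq gene table, 76 of the 171 genes lie next to another protein-coding ZNF gene, and of these 22 rose and 8 fell, with a median of -0.25. Of the 95 that do not, 30 rose and 21 fell, with a median of -0.15. After quantile normalization the medians differed by 0.00021 only. KRAB genes are more often beside another ZNF gene, and within each class the gap was wider on the deposited scale. Of 55 KRAB genes beside another, 17 rose and 3 fell, with a median of -0.10, and of 23 that are not, 12 rose and 3 fell, with a median of 0.22. Without KRAB the medians were -0.63 for 21 genes beside another and -0.32 for 72 that are not. With the GC trend removed the medians without KRAB were 0.15 and 0.21, and those with KRAB 0.33 and 0.66. These gaps were not tested.

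In some runs of adjacent ZNF genes most of the listed genes rose, although runs also hold ZNF genes below the control threshold. In the run that holds ZNF562, ZNF121, ZNF426, ZNF266 and ZNF561, the first 4 rose by 1.00, 0.88, 0.70 and 0.60, and ZNF561 differed by 0.16 without a call. ZNF562 itself had 10.2, 12.4 and 8.55 TPM untreated and 22.3, 20.1 and 22.4 TPM after ES-Cu, although 17.5% of its 50-base words occur in other genes, ZNF561 among them. In the run of ZNF587B, ZNF586, ZNF417, ZNF587, ZNF776 and ZNF552, 4 rose and none fell, while ZNF776 (-0.09) and ZNF552 (-0.24) did not pass. ZNF587B, ZNF417, ZNF587, ZNF776 and ZNF552 each share over 10% of their 50-base words with another gene, so their values are not independent and reads could have been split between them.

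Other runs did not move as one. None of the 6 listed genes in the run of ZNF227, ZNF234, ZNF45, ZNF224, ZNF226 and ZNF112 rose or fell, with differences from -0.56 to 0.12. That run holds 20 ZNF genes, and 1 of those below the control threshold, ZNF222, rose, as given above. In the run of ZNF580, ZNF865, ZNF581 and ZNF524, where no KRAB protein was found, ZNF580 rose by 0.25 while ZNF581 (-0.92) and ZNF524 (-0.96) fell. In that of ZNF746, ZNF212, ZNF398, ZNF282 and ZNF777, the first 2 rose and ZNF777 (-0.96) fell. Across all 171 genes, 24 share over 10% of their 50-base words with another gene, ZNF23 the most at 98.1%. Among the 147 that do not, 47 rose and 23 fell.

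**Figure D5:**
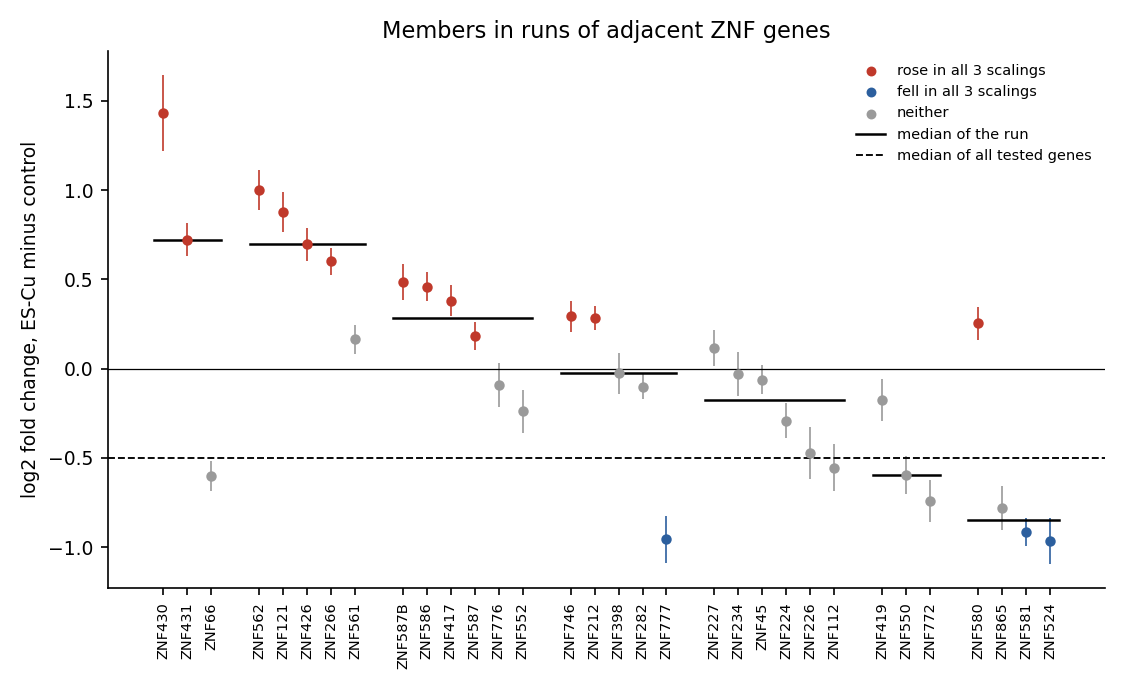
Log2 fold change, ES-Cu minus control, with 1 standard error from limma, of ZNF genes in the runs of adjacent ZNF genes that hold at least 3 of the 171, with the median of each run as a bar. The genes shown from the run of ZNF562 all lie above 0, whereas those of the ZNF580 run hold 1 rise and 2 falls.

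Among the 28 pairs of alike promoter windows, some shared a call and others joined a rise to a gene without a call. The pairs described here were chosen after their values were seen, and the part of promoter sequence was not tested. The windows of ZNF92 and ZNF138, printed above, aligned over 304 columns with 83.9% identical bases. ZNF92 rose by 1.43, whereas ZNF138 had 7.25, 6.73 and 6.62 TPM without the drug and 4.27, 4.2 and 4.50 TPM with ES-Cu, a difference of -0.56 that was not called on all scales. ZNF431 and ZNF66 aligned with 84.2% identity, and ZNF431 rose by 0.72, from 6.62, 5.89 and 5.45 TPM to 11.2, 10.6 and 9.77 TPM. ZNF66 had 31.1, 33.3 and 31.9 TPM in control and 23.5, 18.1 and 21.0 TPM after ES-Cu, a difference of -0.60 without a call on all scales. ZNF430 and ZNF92, with 85% identity, rose alike by 1.43.

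The word TCCAATCAG, on either strand, was present in 11 of the 148 ZNF windows (7.43%), 0.883% of the 27305 windows in the table and 0.494% of 8095 windows of other expressed genes. All 11 belong to KRAB genes. Of these, 8 rose and none fell, with a median of 0.72 and a range from -0.60 to 1.73. It was in all 4 windows found for the 8 largest rises, those of ZNF267, ZNF430, ZNF92 and ZNF57, but these are the windows in which it was noticed. Among the 57 KRAB genes with a window and without the word, 16 rose and 5 fell, with a median of -0.10. The 8 rises with the word include those 4 genes, so this contrast draws on the values that led to the word. The remaining rises were ZNF101, ZNF195, ZNF431 and ZNF791, while ZNF138, ZNF627 and ZNF66 did not rise. Several of the 11 windows are also close copies of each other.

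The word was also counted in genes that had not led to it. In tested ZNF symbols below 5 TPM in control, 3 of 12 with the word rose and 1 fell, against 22 rises and 10 falls in 106 without it. The rises were ZNF669 (3.53 to 9.09 TPM), ZNF77 (4.09 to 8.80 TPM) and ZNF556 (0.84 to 2.02 TPM), and ZNF862 fell from 3.72 to 1.32 TPM. ZNF556, under 1 TPM in control, passed the filter of 1 TPM only through its ES-Cu values. Among genes of other names 6 of 40 with the word rose (15%), against 13.2% of those without. The shorter CCAAT word was in 41.2% of ZNF windows and 35.7% of all windows. A match describes the letters of the window and says nothing about binding.

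Words of stress-responsive factors were looked for on both strands of the same windows. The heat shock element, searched as GAA, TTC and GAA with 2 free bases between them, was in none of the 148 ZNF windows and in 0.487% of all windows. The metal response element, written TGCGCNC or TGCACNC, was in 33.8% of ZNF windows, 29.3% of all windows and 40% of those of other expressed genes. It was in 24.4% of windows of ZNF genes that rose and 33.3% of those that fell. The AP-1 word TGANTCA was in 6.08% of ZNF windows, 7.76% of all windows and 3.99% of those of other expressed genes. By call it was in 6.67% of windows of ZNF genes that rose, 9.52% of those that fell and 4.88% of the rest.

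The antioxidant response word TGACNNNGC was in 16.9% of ZNF windows, 13.6% of all windows and 15.4% of those of other expressed genes. It was in 14 of 45 windows of ZNF genes that rose (31.1%), 3 of 21 of those that fell (14.3%) and 9.76% of the rest. This split was not tested, and the share among rising genes of other names was not counted. Some of the 14 windows are close copies, such as those of ZNF92 and ZNF430. In ZNF92 and ZNF138 the antioxidant response word overlaps the AP-1 word, and in ZNF430 it lies on the other strand. The stretches below show it in capitals, for a pair of rises and for the close copy that did not rise.
ZNF92 (chr7:65373630-65373709, plus strand): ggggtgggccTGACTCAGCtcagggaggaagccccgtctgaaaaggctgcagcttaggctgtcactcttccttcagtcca
ZNF138 (chr7:64794203-64794282, plus strand): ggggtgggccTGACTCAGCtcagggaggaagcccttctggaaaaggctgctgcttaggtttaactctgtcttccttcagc
ZNF430 (chr19:21020453-21020532, plus strand): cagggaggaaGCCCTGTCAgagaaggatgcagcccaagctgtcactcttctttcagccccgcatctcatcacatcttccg
ZNF92 and ZNF138 hold the same word at the same distance from the start, and only the first rose.

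The libraries carried the marks of squamous epithelium and few of other cells. The summed TPM of 10 squamous markers was 2844 to 2974 in control and 3618 to 3726 in ES-Cu, a difference carried by SFN (means of 640 and 1233 TPM) and LAMB3 (357 and 749 TPM). Of the 10 markers 3 were called higher on the deposited scale and 5 lower. TP63, the factor that defines these cells, fell from a mean of 86.8 to 24.5 TPM, and KRT14 had only 4.73 TPM in control. The leukocyte markers found in the table, 3 of 4, summed to 1.01 to 1.14 TPM in control and 0.69 to 1.16 TPM with ES-Cu, and PTPRC was at most 0.04 TPM. Endothelial markers, 3 of 3 found, summed to 7.14 to 7.47 and 1.28 to 1.87 TPM, almost all from CDH5, with PECAM1 and VWF at most 0.17 TPM. Fibroblast markers, 3 of 4 found, summed to 10.5 to 10.7 and 4.37 to 4.86 TPM, mostly from COL1A1. In bulk RNA fewer cells of a type and less RNA per cell cannot be told apart. All ZNF values here are shares of the RNA of 1 cell line.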

How the data were processed

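Per the labels' protocols, total RNA was read on a BGISEQ-500 as single ends of 50 bases. The authors deposited 1 table of TPM for 6 libraries, 3 per group; the submitters' processing notes list HISAT and Bowtie2, with no version, and GRCm38.p6, a mouse build, although the genes are human. No coordinates of the deposited genes are given for that reason, and the promoter coordinates are those of RefSeq. The depth of each library is unknown. The deposited TPM were taken as log2(TPM + 1), filtered at a mean of 1 TPM, and tested with limma 3.58.1 in R 4.3.3 (two-sided moderated test with a trend of variance on mean, Benjamini-Hochberg adjustment, no replicate block). The replicate error is the SD over 3 libraries. All adjusted p-values come from that limma fit.

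The ZNF genes, the partner lists and the markers were chosen with earlier results of these data known. Genes were named by rule: the 8 largest rises and falls, the 5 highest in control, the 3 nearest each side of 5 TPM, the 3 nearest no difference, all TRIM28 complex genes and up to 3 of each other partner list. A gene that the rule takes is not reported here. Others are said to be chosen after their values were seen, as are genes named within a run, a domain class or a word count, ZNF3, ZNF304, ZNF23, ZNF330, ZNF24 and the 6 falls that lost their call. KRAB was called where at least 12 of 40 residues matched a consensus of 231 ZNF proteins. Proteins were translated from GENCODE release 29 with Biopython 1.88. Alternatives were other scalings, pseudocounts of 0.1 and 0.5, filters, models, a replicate block, other thresholds and leaving out each library. Checked on simulated data for ES-Cu against control with 11927 genes, limma called 47 of 50 genes lowered by a log2 change of -1, 37 of 50 at -0.5, 38 of 50 at 0.5, 49 of 50 at 1, and 9 of 11727 left unchanged. The simulated noise was normal with the spread of the control libraries, and nearly all genes were left unchanged. In the data 70% of tested genes were called lower, so these counts do not give the error rate here.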

Additional observations from a re-analysis of the deposited data

How the results depend on the processing

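The count of 85 ZNF genes called lower and 52 called higher moved to 34 and 89 with the GC trend removed, to 37 and 89 after median-of-ratios scaling and to 32 and 94 after quantile normalization. Each of these settings also brought the median of all tested genes from -0.50 to near 0 (-0.0016, 0.0037 and -0.074). Limma treat with a minimum of 0.5 gave 35 and 18. Members of at least 2 TPM gave 137 lower and 70 higher, and of at least 10 TPM 41 lower and 27 higher. Members of at least 5 TPM in ES-Cu gave 48 lower and 64 higher, so that the majority turned. That choice used the ES-Cu values, which favours genes called higher. Leaving out 1 library gave 80 to 83 lower and 46 to 51 higher.

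The ZNF median minus that of all tested genes, 0.27, stayed above 0 in each setting. It was 0.33 with a filter of 5 TPM, 0.063 with no filter, which adds genes near 0, 0.30 with a pseudocount of 0.1 and 0.41 after quantile normalization. It was 0.23 for members of at least 2 TPM, 0.36 for 10 TPM, 0.63 for 5 TPM in ES-Cu and 0.41 for 5 TPM over all libraries. The last 2 choices used ES-Cu values for the members but not for the genes compared, which favours a wider gap. As an alternative added after seeing the data, members were chosen on 2 control libraries and compared with the held-out one, which gave 0.30, 0.34 and 0.29 for libraries 1 to 3. Leaving out 1 library gave 0.25 to 0.31.

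By control level, the gap to other genes at 5 to 10 TPM (0.38) was 0.40 with the 20 highest genes removed, 0.40 with the GC trend removed, 0.36 with a filter of 5 TPM, 0.40 after median scaling and 0.46 and 0.42 with pseudocounts of 0.1 and 0.5. At 20 to 50 TPM (0.29) it was 0.37 and at 50 TPM and above (0.14) 0.34 with the GC trend removed. Leaving out 1 library gave 0.38 to 0.43, 0.36 to 0.42, 0.27 to 0.33 and 0.0032 to 0.22 in the 4 bins.

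The KRAB gap (0.32) was 0.17 with the GC trend removed, 0.27 with a filter of 5 TPM and 0.29 to 0.36 without 1 library. The gap of ZNF genes beside another (-0.11) was -0.053 with the GC trend removed, -0.021 with a filter of 5 TPM, -0.000211 after quantile normalization and -0.11 to -0.038 without 1 library.

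Partner genes called lower (31) and higher (1) were 16 and 10 with the GC trend removed, 12 and 0 with treat, 10 and 13 after median scaling and 18 and 4 after quantile normalization. With the 20 highest genes removed 3 were higher, and 30 to 31 lower and 1 to 3 higher without 1 library. Without a filter the gap to all genes was -0.00390 for ZBTB, 0.038 for ZSCAN or ZKSCAN, 0.0049 for ZFP and -0.10 for ZC3H, and after quantile normalization 0.31, 0.36 and 0.37 for the first 3. For ZSCAN or ZKSCAN it was 0.10 with the GC trend removed, and ZBTB ran from 0.18 to 0.27 without 1 library. The summed share, ES-Cu minus control in percent of TPM, was -0.000849, with -0.0030 to 0.0023 without 1 library. It was 0.033 with the 20 highest genes removed, 0.099 after median scaling, 0.019 for members of 5 TPM in ES-Cu and 0.00841 for members of 5 TPM over all libraries.

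The sign turned for some named genes, several of them called lower on the deposited scale. With the GC trend removed, after median scaling and after quantile normalization, ZNF593 gave 0.46, 0.31 and 0.070, ZNF398 0.53, 0.44 and 0.60, MPHOSPH8 0.018, 0.16 and 0.037 and DAXX 0.32, 0.30 and 0.065. The first 2 settings gave 0.11 and 0.15 for ZNF185, 0.40 and 0.23 for TRIM28 and 0.048 and 0.19 for PPHLN1. Median and quantile scaling gave 0.13 and 0.026 for ATF7IP, and quantile normalization 0.0066 for ZNF510. ZNF398 was 0.11 with the 20 highest genes removed. Leaving out 1 library gave -0.13 to 0.053 for ZNF398, -0.035 to 0.086 for ZNF655, -0.010 to 0.075 for ZNF207 and -0.037 to 0.075 for ZNF639. The cause of these changes was not tested.

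With the replicate number as a block 85 ZNF genes were called lower and 50 higher. Same-numbered libraries did not deviate together (r = 0.021, -0.034 and 0.011 across genes), so the numbers were not taken as pairs. TPM keeps no depth, so low genes have an unknown counting error. Groups of 3 libraries of 1 line, with 1 treatment time and no stated control time, limit what any difference can show.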
